A study of Mus musculus with 18 samples.

Results

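The 20-Mb neighbourhood of the edited *Trdn-as* locus on mouse chromosome 10 was described with chromatin immunoprecipitation and sequencing (ChIP-seq) of RNA polymerase II (Pol II) and CTCF in ventricles. The members were all peaks of the deposited table on chromosome 10 that started from 23000000 to 43000000 in GRCm39, leaving out 32951550 to 33357705, which hold *Trdn* with 5 kb on either side. This gave 587 of the 101256 peaks, chosen by position alone. The 31 peaks of *Trdn* itself were left out and serve only as a check of the edit. *Trdn-as* (ENSMUSG00000112707) lies on the minus strand at chr10:33098341-33132414, within *Trdn* at chr10:32956550-33352705, and all distances were taken from its start at 33132414. Of the members, 216 lay before this position on the chromosome and 371 after it. The nearest member was 361 kb before it and the nearest on the other side 397 kb after it. Peaks were short, with a median length of 379 nt (118 to 5971 nt), and together covered 335 kb. The deposited annotation placed 193 members at a promoter, of 113 genes, a further 212 inside a gene and 182 in neither.

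Adult mice of 3 genotypes were compared. In *Trdn-as* KO mice (label trdn-as KO) a polyadenylation site stands in the first exon of *Trdn-as*, so that transcription of the antisense RNA ends early. The allele was made with Cas9 in embryonic stem cells and carried through chimeras and crosses to C57BL/6 into homozygous mice, so that chromosome 10 sequence next to the edit is inherited with it. *Mettl3* KO mice (label Mettl3lox/lox:alphaMHC-MerCreMerpos) lose the m6A RNA methyltransferase METTL3 in cardiomyocytes only, where the alphaMHC promoter drives a Cre that tamoxifen activates, while other cells of the ventricle keep it. The controls carry the label WT, although the methods describe Mettl3 lox/lox controls for this line, which were injected with tamoxifen as adults, as the KO mice were. Whether the WT hearts of the ChIP-seq came from such mice, and the ages at which the ChIP-seq hearts were taken, were not given in the sources used here. Chromatin came from ventricles of 2 hearts, and each genotype had 2 Pol II libraries, 2 CTCF libraries and 1 IgG library as background. The sources do not say whether libraries of a genotype came from separate hearts, so that p-values measure the spread between these libraries, which may be technical.

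Pol II transcribes all protein-coding genes and most long non-coding RNAs, and in ChIP-seq its signal piles up at active promoters. CTCF binds a long DNA motif and, together with cohesin, holds chromatin loops whose borders separate the regulatory neighbourhoods of genes. An antisense transcript can act in cis, that is on genes of the chromosome from which it is made, and the comparison around the locus addresses whether Pol II or CTCF signal of neighbouring genes differed in *Trdn-as* KO hearts. A difference near the edit could come from such an action or from chromosome 10 sequence linked to the edit. In these libraries they cannot be told apart, and neither was tested.

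The promoters of *Nkain2* and *Clvs2*, which flank *Trdn*, and of 3 more genes of the near list are shown because they carry the neighbour comparison and differ in sequence. The 250 bases before the annotated start are given on the gene's strand, from RefSeq on build GRCm38.p6, at chr10:32889916-32890165 for *Nkain2*, chr10:33624685-33624934 for *Clvs2*, chr10:31609726-31609975 for *Rnf217*, chr10:31445959-31446208 for *Tpd52l1* and chr10:30842784-30843033 for *Hey2*, all on the minus strand. Since the peaks use GRCm39, the sequences were not placed against peaks by coordinates. Capitals mark a match to the CTCF core CCNNNAGNNGGC.
Nkain2: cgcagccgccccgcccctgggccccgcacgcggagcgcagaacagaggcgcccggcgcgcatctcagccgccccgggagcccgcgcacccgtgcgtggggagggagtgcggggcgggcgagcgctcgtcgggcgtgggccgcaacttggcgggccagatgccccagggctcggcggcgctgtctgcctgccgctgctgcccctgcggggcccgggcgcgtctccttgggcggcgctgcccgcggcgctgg
Clvs2: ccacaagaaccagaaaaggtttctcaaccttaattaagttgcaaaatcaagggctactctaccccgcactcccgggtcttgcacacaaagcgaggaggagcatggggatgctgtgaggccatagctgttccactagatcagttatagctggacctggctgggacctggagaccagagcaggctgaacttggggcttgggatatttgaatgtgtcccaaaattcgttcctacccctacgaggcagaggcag
Rnf217: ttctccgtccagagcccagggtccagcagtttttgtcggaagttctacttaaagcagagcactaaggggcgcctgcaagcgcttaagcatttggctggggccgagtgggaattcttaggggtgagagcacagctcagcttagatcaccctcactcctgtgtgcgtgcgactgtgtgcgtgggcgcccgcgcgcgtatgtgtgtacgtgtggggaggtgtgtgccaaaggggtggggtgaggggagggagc
Tpd52l1: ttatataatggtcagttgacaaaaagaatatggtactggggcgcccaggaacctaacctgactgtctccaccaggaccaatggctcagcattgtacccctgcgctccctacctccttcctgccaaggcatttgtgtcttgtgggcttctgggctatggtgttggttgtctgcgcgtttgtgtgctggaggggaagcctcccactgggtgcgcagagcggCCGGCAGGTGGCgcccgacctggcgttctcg
Hey2: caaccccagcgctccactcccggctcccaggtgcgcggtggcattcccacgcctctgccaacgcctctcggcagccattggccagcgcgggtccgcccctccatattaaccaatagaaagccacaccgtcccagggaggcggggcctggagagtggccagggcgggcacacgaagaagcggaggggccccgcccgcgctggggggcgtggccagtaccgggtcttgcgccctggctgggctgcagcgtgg
The *Nkain2* window held 39 CpG dinucleotides and was 81.6% G or C, whereas the *Clvs2* window held 5 CpG and was 52.0% G or C. The *Hey2* window held 22 CpG, *Rnf217* 14 and *Tpd52l1* 11, against a median of 6 over the 32851 promoters of the RefSeq table. Of the 70 member genes with a symbol, 57 matched that table with 69 promoters, and their median was 15 CpG. The only match of the CTCF core among these 5 windows, CCGGCAGGTGGC, began 31 bases before the start of *Tpd52l1*, where the CTCF libraries also had signal over IgG. On both strands the core was found in 7.17% of all promoters and in 7.2% of the member promoters (5 of 69). The letters TATAAA were found in 12.4% of all promoters and in 5 of the 69.

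The libraries carried the labelled edit. At the *Trdn-as* promoter peak (chr10:33129849-33132974), Pol II signal was 530 and 595 in WT, while *Trdn-as* KO had 140 and 100 and *Mettl3* KO had 503 and 491. It was 4.71-fold lower in *Trdn-as* KO than in WT (log2 fold change -2.24, SE 0.18, limma, adjusted p = 2.8e-14). Values here and below are the signal normalized by the authors and rounded to whole numbers, and fold changes are on the log2(value + 1) scale, which understates the change of weak peaks. Pol II libraries held 1986976 to 4952380 reads in peaks, estimated from the spacing of their values, and IgG libraries 273525 to 813330, so that IgG values of single peaks are coarse. By the same estimate 1 read stands for 2.55 to 6.56 in IgG values and for 0.945 to 2.04 in Pol II values. Normalization thus scaled IgG up, and a target value near or below IgG does not show that signal was absent. By this estimate the Pol II library of *Trdn-as* KO replicate 2 had the fewest reads in peaks, and its median log2 ratio to the mean library was -0.19, against -0.02 to 0.14 in the others. The study lists for it more uniquely mapped reads than for some other Pol II libraries, but the fewest called peaks of them. The summed promoter signal of 7 cardiomyocyte markers was 32632 and 25169 in *Trdn-as* KO against 25169 to 34287 over all 6 Pol II libraries. That of 4 fibroblast markers was 1160 and 1244 in WT, while *Trdn-as* KO had 1601 and 1118 and *Mettl3* KO had 2365 and 2284. The leukocyte, smooth muscle and skeletal muscle markers with a peak summed to at most 247 in any Pol II library, and the endothelial markers to 863 to 1136. *Pecam1*, *Csf1r* and *Myh2* had no promoter peak. In bulk tissue, fewer cells of a type and less signal per cell cannot be told apart. All 5 *Trdn-as* KO libraries were at 0 over the 6 Y-chromosome peaks, where the others summed to 50 to 326, so that the presence of Y-chromosome sequence and the *Trdn-as* genotype cannot be told apart.

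No Pol II peak of the window passed the test between *Trdn-as* KO and WT hearts. Of 587 members, 281 reached a value of 10 or more in 2 or more Pol II libraries and were tested, and 0 had an adjusted p below 0.05 (limma, smallest adjusted p = 0.29), against 0.269% of the tested peaks on the 18 other autosomes. At an unadjusted p below 0.05 there were 15 members, 6 higher and 9 lower in *Trdn-as* KO, which is 5.34% against 7.71% elsewhere. More than 2-fold differences were found at 28 members (9.96%, other autosomes 9.47%). Both *Trdn-as* KO libraries lay above both WT libraries at 44 members and below them at 38, together 29.2% against 32% elsewhere. The median log2 fold change of the members was -0.01, beside -0.07 on the other autosomes. In contrast, 7 of the 12 tested peaks within *Trdn* had an adjusted p below 0.05, all lower in *Trdn-as* KO. How small a difference could be seen depended on the signal. Of the 75 members with a mean of at least 50, 72 had a 95% interval that lay within 2-fold either way, but over all 281 members this held for 96 (34.2%). Leaving out *Trdn-as* KO replicate 1, so that the library with the fewest reads in peaks stood alone, gave 8 members with an adjusted p below 0.05, all lower in *Trdn-as* KO, while 4.28% of peaks elsewhere passed and their median log2 fold change was -0.19. Leaving out that library itself gave 0. The calls on the other autosomes, 132 in all, also fell in number when any single Pol II library other than *Trdn-as* KO replicate 1 was left out. They became 269 and 334 under the other scalings, 171 with a replicate block and 173 with a minimum of 30. With the 4 compared libraries there were 26, without the filter 6 and without the variance trend 1.

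**Figure D1:**
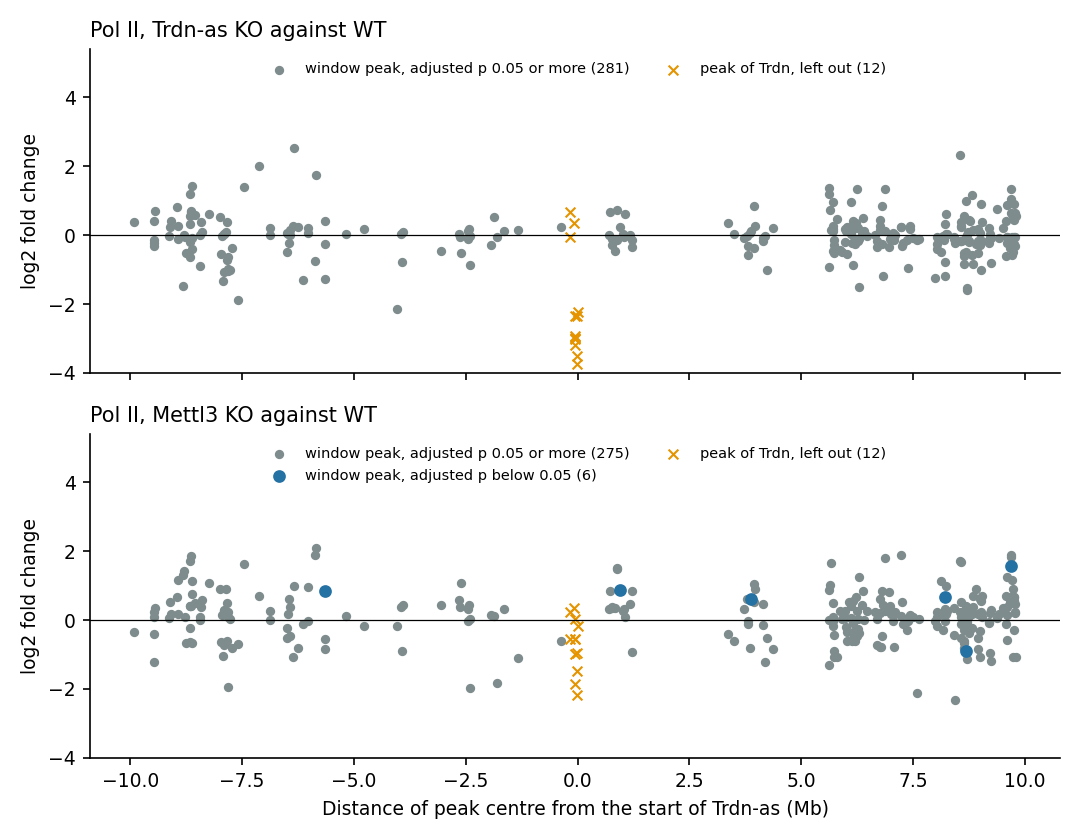
Log2 fold change of Pol II signal at each tested peak of the window (y axis) against the distance of the peak's centre from the start of *Trdn-as* in Mb (x axis), for *Trdn-as* KO against WT (top) and *Mettl3* KO against WT (bottom). Grey points are the peaks with an adjusted p of 0.05 or more (281 and 275), blue points the 6 below it and crosses the 12 peaks of *Trdn*, which were left out of the window. In *Trdn-as* KO most crosses lie far below 0, and the points on both sides scatter around 0. Low values also occur in the window, where 28 of 281 peaks differed more than 2-fold in either direction without passing the test.

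Genes of the near list were compared library by library. *Hey2*, a repressor that acts downstream of Notch in heart development, had Pol II signal of 324 and 358 in WT compared with 345 and 320 in *Trdn-as* KO at its promoter peak chr10:30718071-30719874, 2.41 Mb before *Trdn-as*. The *Mettl3* KO libraries had 336 and 354, so that all 3 genotypes overlapped. The interval of the fold between *Trdn-as* KO and WT was 0.768 to 1.24 (log2 fold change -0.04, SE 0.17, limma, adjusted p = 0.99). *Ncoa7*, a nuclear receptor coactivator, had 210 and 197 in WT against 264 and 183 in *Trdn-as* KO at chr10:30678142-30679883. One *Trdn-as* KO library lay above and the other below the WT libraries, with an interval of 0.819 to 1.42. *Rnf217*, which encodes a ubiquitin ligase, had 110 and 99 in WT versus 118 and 108 in *Trdn-as* KO at chr10:31484431-31485993, with an interval of 0.777 to 1.504. Its IgG values were 56 in WT and 98 in *Trdn-as* KO, so that little of the signal stood above background in the KO. *Hddc2*, which encodes a nucleotidase, was the only gene of this list whose groups did not overlap in Pol II, with 174 and 199 in WT compared with 168 and 136 in *Trdn-as* KO at chr10:31188939-31189839. Its interval was 0.607 to 1.09 and its adjusted p 0.81.

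At the nearest promoter with a peak Pol II values were low in each genotype. *Nkain2*, which encodes a protein that interacts with the sodium pump, had Pol II values of 15 and 6 in WT, while *Trdn-as* KO had 11 and 12 and *Mettl3* KO had 11 and 3 at its promoter peak chr10:32766343-32767169, 366 kb before *Trdn-as*. IgG values, scaled up per read, were 13, 20 and 18 there (WT, *Trdn-as* KO, *Mettl3* KO), and Pol II signal over background was not tested. The interval of the fold, 0.436 to 3.20, was wide. A peak inside *Nkain2* at chr10:31803674-31804136, 1.33 Mb before *Trdn-as*, had Pol II values of 41 and 51 in WT with IgG at 5, and of 78 and 33 in *Trdn-as* KO with IgG at 39. *Mettl3* KO had 27 and 16 there with IgG at 14, and the *Trdn-as* KO libraries lay on either side of WT (adjusted p = 0.97). *Tpd52l1*, of the tumor protein D52 family, had 37 and 16 in WT against 25 and 22 in *Trdn-as* KO at chr10:31321380-31322453, against IgG values of 25 and 53. *Cenpw*, which encodes a centromere protein, had 16 and 11 in WT versus 11 and 8 in *Trdn-as* KO at chr10:30076379-30076767. No peak was annotated to the promoter of *Clvs2*, a gene for a lipid-binding protein of neurons, and it has no value here. On the other side, *Zup1*, which encodes a deubiquitinase, had 153 and 151 in WT compared with 178 and 132 in *Trdn-as* KO at chr10:33826733-33827553, 695 kb after *Trdn-as*. *Rwdd1* had 271 and 264 in WT against 294 and 206 in *Trdn-as* KO. *Calhm5*, of a family of calcium homeostasis modulators, had 67 and 73 in WT versus 68 and 37 in *Trdn-as* KO. At *Zup1* and *Rwdd1* one *Trdn-as* KO library lay above and the other below the WT libraries, and at *Calhm5* the groups overlapped. Over the 10 nearest tested Pol II peaks, 5 on each side, log2 fold changes ran from -0.47 to 0.66, 6 above 0 and 4 below, and the smallest adjusted p was 0.76.

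**Figure D2:**
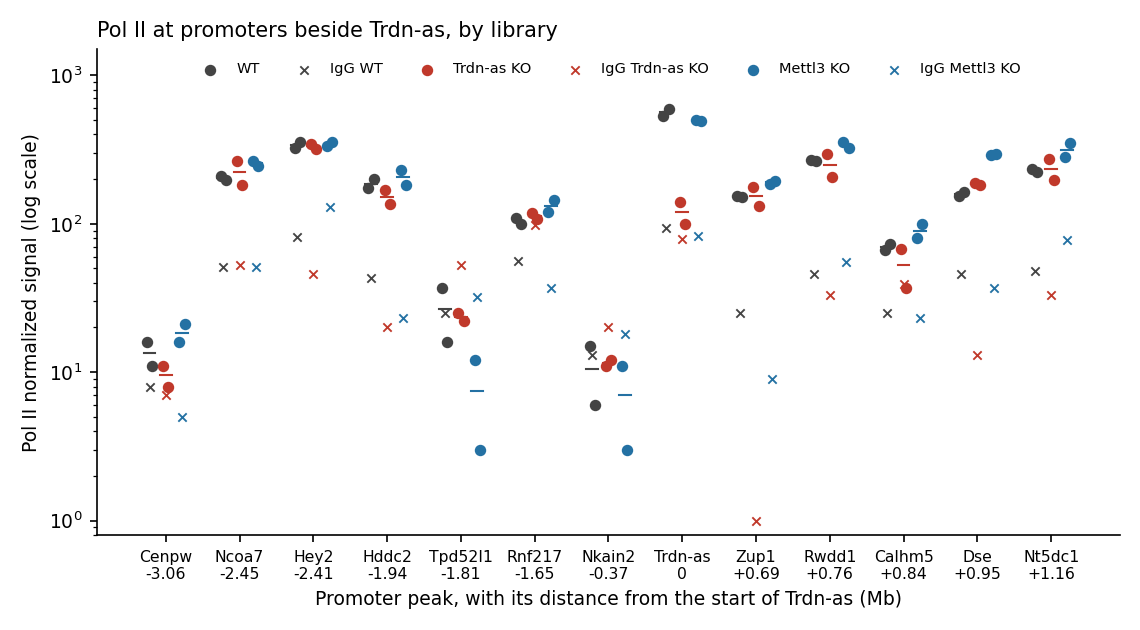
Pol II normalized signal (y axis, log scale) at the promoter peaks of 13 genes in order of their distance from the start of *Trdn-as* (x axis, Mb), with a point per library, a bar at the mean of each genotype and a cross for its IgG library, where a value of 0 is drawn at 1. *Trdn-as* itself stands at 140 and 100 in the *Trdn-as* KO libraries against 530 and 595 in WT, whereas at *Hey2* the 3 genotypes lie between 320 and 358.

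Genes of the window with known roles were grouped by lists. Of the 8 near genes above, 7 had a promoter peak, all 7 were tested in Pol II and 0 passed, with a median log2 fold change of -0.04 in *Trdn-as* KO. Of 12 heart and vessel genes, 11 had a promoter peak and 10 were tested, 0 passed, and their median was 0.03, from -0.21 to 0.57. Of 22 genes with general functions such as translation and transport, 17 were tested, 0 passed, and their median was 0.04, from -0.13 to 0.23. With 0.269% of peaks called on other autosomes, lists of this size cannot be told from that background by their counts. The median over all tested peaks was -0.07, and that of the 23171 tested promoter peaks on other autosomes -0.05. Of 14 genes with no known use in the heart, among them the trace amine receptors, 3 had a promoter peak and only that of *Frk* was tested, with 20 and 19 in WT compared with 22 and 14 in *Trdn-as* KO. *Akap7*, *Tbpl1*, *Tube1*, *Cdk19*, *Fig4* and *Ostm1* of the former lists had no promoter peak.

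Among the heart and vessel genes, *Enpp1*, which makes the calcification inhibitor pyrophosphate, had the largest difference, with Pol II values of 86 and 98 in WT against 149 and 126 in *Trdn-as* KO at chr10:24587352-24588309. Its groups did not overlap, but the adjusted p was 0.52 (log2 fold change 0.57, SE 0.24, limma), and *Mettl3* KO had 117 and 142. It was also the largest log2 difference among the 75 members with a mean of at least 50. *Lama2*, the laminin chain of the muscle basement membrane, had 102 and 121 in WT versus 164 and 132 in *Trdn-as* KO (adjusted p = 0.71). The transcription factor gene *Foxo3* had 1236 and 1180 in WT compared with 1123 and 985 in *Trdn-as* KO (adjusted p = 0.76). *Ccn2*, which encodes a matrix-associated growth factor, had 411 and 419 in WT against 384 and 336 in *Trdn-as* KO (adjusted p = 0.84). *Lama4*, which encodes a laminin chain of vessels, had 272 and 256 in WT versus 292 and 303 in *Trdn-as* KO (adjusted p = 0.90). The *Trdn-as* KO libraries lay above WT at *Enpp1*, *Lama2* and *Lama4* and below WT at *Foxo3* and *Ccn2*, beside the 32% of peaks elsewhere whose groups did not overlap. These 5 promoters lie 5 Mb or more from *Trdn-as*. *Rps12* of the small ribosomal subunit had 448 and 419 against 478 and 328, and the histone deacetylase gene *Hdac2* had 267 and 262 against 303 and 208. At both, the *Trdn-as* KO libraries lay on either side of WT. The members with the smallest unadjusted p, chosen for that after their values were seen, were a promoter peak of *Mical1* with 37 and 41 in WT versus 23 and 12 in *Trdn-as* KO and a second *Sesn1* peak with 0 and 11 in WT compared with 15 and 18 in *Trdn-as* KO. Their adjusted p were 0.29 and 0.36, and their IgG values reached 25 and 41.

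Pol II differences were also described by distance from *Trdn-as*. The median absolute log2 fold change was 0.24 within 1 Mb (9 tested peaks), 0.14 from 1 to 2 Mb (11), 0.18 from 2 to 5 Mb (30) and 0.27 at 5 Mb or more (231). The 2435 tested peaks on the rest of chromosome 10 gave 0.30, and single autosomes other than chromosome 10 gave 0.26 (chromosome 11) to 0.31 (chromosome 13). The window as a whole gave 0.26. The order of the distance ranges depends on the filter, since among peaks with 30 or more in 2 or more libraries the median was 0.23 within 1 Mb (5 peaks), 0.18 at 5 Mb or more (97) and 0.18 on other autosomes. Over the other autosomes the share of peaks with an adjusted p below 0.05 ran from 0.0451% on chromosome 15 to 0.521% on chromosome 9. On the rest of chromosome 10 it was 0.0821% (2 peaks, both lower in *Trdn-as* KO). On chromosome X it was 1.78% (15 of 845 tested peaks, all higher in *Trdn-as* KO), and the part of sex in this was not tested. The few peaks per distance range and the shared libraries make these medians a description, and no test was made of them.

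CTCF signal in the window gave no call in *Trdn-as* KO against WT either. Of 353 tested members, 0 had an adjusted p below 0.05 (limma, smallest adjusted p = 0.23), against 0.528% of the tested peaks on other autosomes. At an unadjusted p below 0.05 there were 25 members, 18 higher and 7 lower in *Trdn-as* KO, which is 7.08% against 10% elsewhere. No member differed more than 2-fold, compared with 0.547% elsewhere, and the largest log2 difference was 0.84. Groups did not overlap at 88 members, 54 higher and 34 lower, which is 24.9% against 32.5% elsewhere. CTCF values were steadier than those of Pol II, and 331 of the 353 members (93.8%) had a 95% interval within 2-fold either way. The median absolute log2 fold change was 0.17 within 1 Mb (14 peaks), 0.09 from 1 to 2 Mb (18), 0.14 from 2 to 5 Mb (48) and 0.14 at 5 Mb or more (273), beside 0.14 on the rest of chromosome 10 and 0.13 to 0.15 on single other autosomes.

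**Figure D3:**
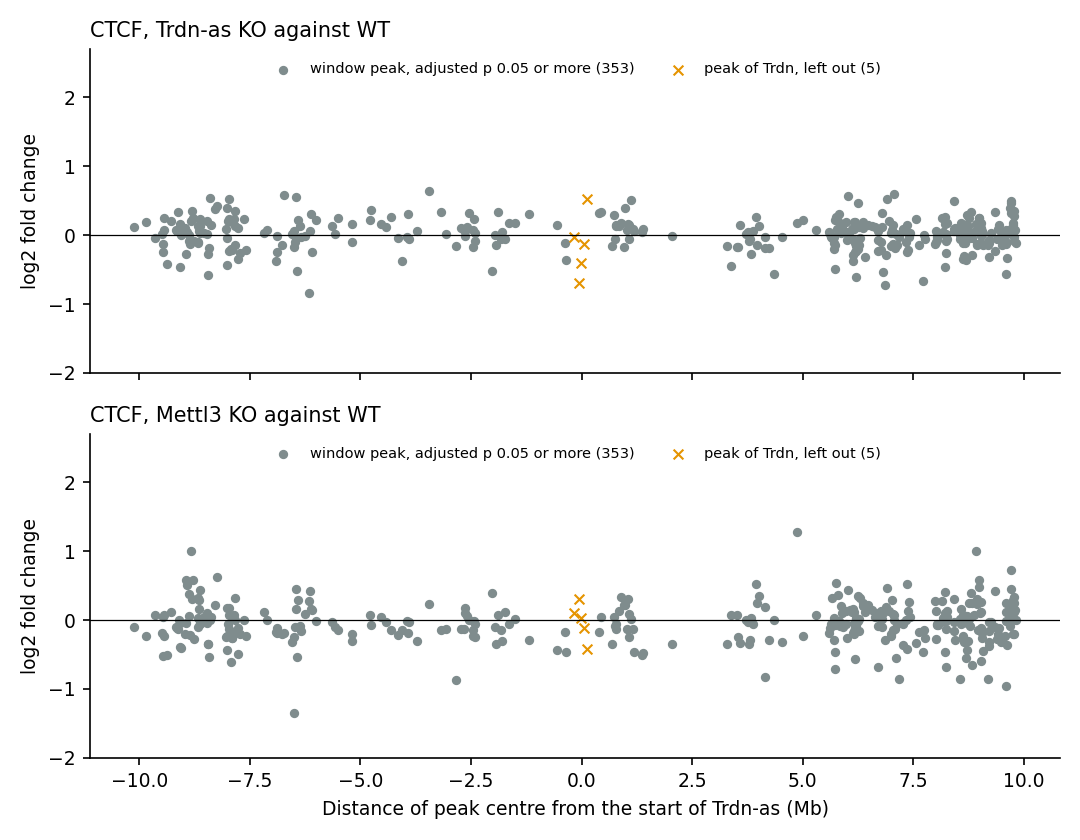
Log2 fold change of CTCF signal at each of the 353 tested peaks of the window (y axis) against the distance of the peak's centre from the start of *Trdn-as* in Mb (x axis), for *Trdn-as* KO against WT (top) and *Mettl3* KO against WT (bottom), with crosses for the 5 tested peaks of *Trdn*. Every peak of the window had an adjusted p of 0.05 or more in both comparisons, and in *Trdn-as* KO none lay further than 0.84 from 0.

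At single sites, CTCF signal above IgG was found at the *Tpd52l1* promoter, whose sequence holds the core motif, with 86 and 78 in WT, while *Trdn-as* KO had 78 and 79 and *Mettl3* KO had 71 and 77. IgG gave 25, 53 and 32 there in the same order. At the *Nkain2* promoter peak CTCF was 45 and 42 in WT against 40 and 40 in *Trdn-as* KO, above IgG at 13 and 20, and at the next *Nkain2* peak (chr10:32771119-32771456) it was 19 and 15 against 13 and 13. Both of these peaks, annotated to the *Nkain2* promoter within 5 kb of its start, thus had *Trdn-as* KO values below WT. Their adjusted p were 0.81 and 0.61 (limma), whereas the 3 nearest tested CTCF peaks inside the gene had log2 fold changes of 0.15, 0.31 and 0.18. At *Hey2* CTCF was 76 and 77 in WT with IgG at 81, versus 77 and 79 in *Trdn-as* KO with IgG at 46. At *Rnf217* CTCF was 41 and 40 in WT against 41 and 51 in *Trdn-as* KO, with IgG at 56 and 98. IgG values were scaled up per read, so a CTCF value below IgG does not show that signal was absent. *Ncoa7* had 55 and 65 in WT with IgG at 51, compared with 51 and 55 in *Trdn-as* KO with IgG at 53. The nearest site whose *Trdn-as* KO values exceeded WT with an unadjusted p below 0.05 lay between genes at chr10:33862292-33863453, 730.5 kb after *Trdn-as*, with 102 and 93 in WT, while *Trdn-as* KO had 121 and 119 and *Mettl3* KO had 102 and 99. IgG gave 53, 13 and 23 there in the same order. The CTCF log2 fold change at this site was 0.30 (SE 0.10, limma, adjusted p = 0.30). Among the 14 tested CTCF peaks within 1 Mb, 3 had higher and 4 lower values in both *Trdn-as* KO libraries than in WT (50%), beside 32.5% of peaks on other autosomes whose groups did not overlap, and 14 peaks are too few to read a share from. At the promoter of the trace amine receptor gene *Taar9*, CTCF was 40 and 36 in WT compared with 37 and 42 in *Trdn-as* KO, while Pol II ranged from 0 to 6 over its 6 libraries. The near, heart and general lists had 0 CTCF calls among 7, 10 and 17 tested peaks, too few to tell from the 0.528% called elsewhere, with median log2 fold changes of -0.06, 0.02 and 0.01 beside 0.04 over all tested peaks.

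CTCF calls were unevenly spread over the other chromosomes. Chromosome X had 55 of 1304 tested CTCF peaks with an adjusted p below 0.05 (4.22%), all higher in *Trdn-as* KO, whose libraries were also those at 0 over the Y-chromosome peaks, and the part of sex in this was not tested. Among autosomes, chromosome 9 had 2.06% of its 3342 tested CTCF peaks with an adjusted p below 0.05, 52 of 69 higher in *Trdn-as* KO, while chromosome 4, the rest of chromosome 10 and the window had 0. The 297 calls on the other autosomes became 0 to 16 when any 1 of the 6 CTCF libraries was left out, 12 with the 4 compared libraries and 0 with a replicate block on these 4. They became 188 with the block on all 6 libraries, 121 without the variance trend, 34 without the filter, 234 with a minimum of 30, and 412 and 399 under the other scalings. Peaks nearly without signal in a single genotype were also counted, at 5 or less in all of its 5 libraries. They also had to be at 15 or more in all CTCF libraries, or in all Pol II libraries, of the other genotypes. The window held 0 such peaks for each genotype. The other autosomes held 0 for WT, 4 for *Trdn-as* KO and 2 for *Mettl3* KO. By CTCF alone, members at 5 or less in both libraries of *Trdn-as* KO or WT and at 15 or more in both of the other numbered 0, against 0.0391% elsewhere (22 peaks). A peak at 0 in all 5 libraries of a genotype was not found among the members.

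**Figure D4:**
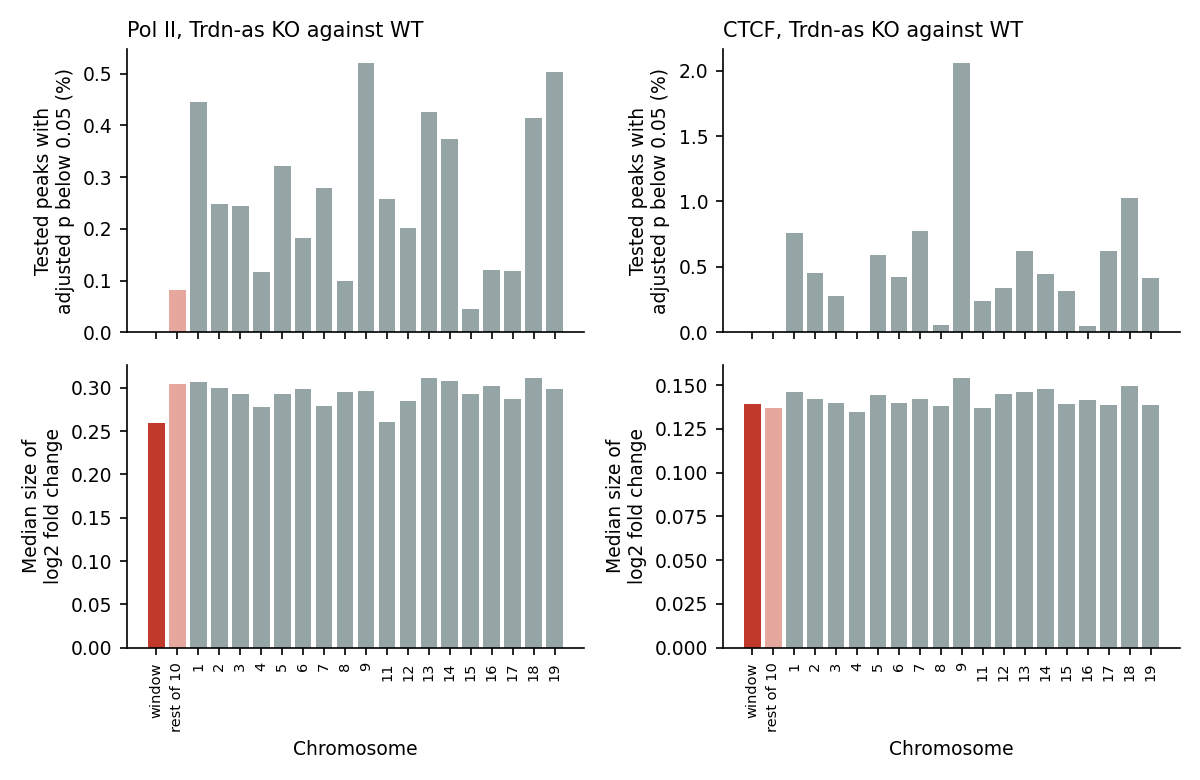
Share of tested peaks with an adjusted p below 0.05 in percent (top) and median absolute log2 fold change (bottom) between *Trdn-as* KO and WT for the window, the rest of chromosome 10 and each other autosome, for Pol II (left) and CTCF (right). Bars start at 0. The window has no call for either target, and the tallest bar of the autosomes shown is chromosome 9, at 0.521% for Pol II and 2.06% for CTCF.

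The share of the library signal that fell in the window was compared over libraries. Summed over all members, Pol II signal was 0.524% and 0.514% of the autosomal total in WT compared with 0.526% and 0.542% in *Trdn-as* KO, a ratio of 1.03. The *Trdn-as* KO libraries lay above WT, with an exact permutation p of 0.33 (two-sided, 0.99 adjusted over 6 comparisons), which is the smallest p that 2 against 2 libraries can give. In *Mettl3* KO the share was 0.538% and 0.544%, a ratio of 1.04 to WT with the same p. CTCF gave 0.565% and 0.548% in WT, while *Trdn-as* KO had 0.549% and 0.567% and *Mettl3* KO had 0.560% and 0.561%, all overlapping. The IgG libraries, which carry no target, had 0.536% in WT, 0.540% in *Trdn-as* KO and 0.521% in *Mettl3* KO. Normalized signal of at least 2 times the mean IgG value was found at 148 members for Pol II (25.2%, other autosomes 26.6%). For CTCF it was found at 197 (33.6%, other autosomes 31.3%). IgG values were scaled up per read, so members outside these shares may still hold signal over background.

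In *Mettl3* KO, whose edited gene lies on another chromosome, the same window held Pol II peaks that passed the test. Against WT, 6 of 281 members had an adjusted p below 0.05 (limma), 5 higher and 1 lower, beside 1.19% of the tested peaks on other autosomes. *Dse*, which encodes the epimerase that makes dermatan sulfate, rose from 153 and 164 in WT to 289 and 293 in *Mettl3* KO at chr10:34082519-34083881, 0.95 Mb after *Trdn-as* (1.83-fold, log2 fold change 0.87, SE 0.20, limma, adjusted p = 0.012). *Trdn-as* KO had 188 and 183 there. *Marcks*, which encodes an actin-associated kinase substrate, rose from 650 and 740 to 1023 and 1079 (1.51-fold, adjusted p = 0.015), and *Mical1*, which encodes an actin-oxidizing enzyme, rose from 301 and 358 to 558 and 499 at chr10:41351868-41354186 (1.61-fold, adjusted p = 0.02). *Lama2* rose from 102 and 121 to 192 and 206 (1.78-fold, adjusted p = 0.04). A weak peak inside *Scml4* rose from 12 and 12 to 48 and 30 (adjusted p = 0.04), with IgG at 56 in WT and 9 in *Mettl3* KO. A peak inside *Armc2* at chr10:41807516-41810188 fell from 328 and 351 to 171 and 190 (1.88-fold lower, adjusted p = 0.003), while *Trdn-as* KO had 339 and 318. The median log2 fold change of the members was 0.17 in *Mettl3* KO, compared with 0.07 on other autosomes and 0.17 at promoter peaks there. The near genes had a median of 0.14 with 0 of 7 passing, the heart and vessel genes 0.26 with 1 of 10, and the general genes 0.37 with 2 of 17. The fibroblast marker sum was also higher in both *Mettl3* KO libraries, at 2365 and 2284 against 1160 and 1244 in WT, and its part in these differences was not tested. With the median log2 ratio of every library set to 0, or with equal autosomal totals, 8 members were higher and 7 lower, or 7 and 7. On other autosomes 4.6% or 4.43% of the tested peaks then passed, and their median became -0.01 or -0.08. Calls fell in number when a WT or *Mettl3* KO library was left out and rose without a *Trdn-as* KO library. This held in the window and on other autosomes. The median log2 fold change of the members was then 0.17 to 0.22, beside 0.05 to 0.13 on other autosomes. CTCF gave 0 of 353 (0.181% elsewhere), with 46 members (13%) at an unadjusted p below 0.05, compared with 15.7% elsewhere.

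Both KO genotypes were also set against each other, a comparison that shares its libraries with the other two. In Pol II, 3 of 281 members had an adjusted p below 0.05 (limma, 1.45% elsewhere). *Ccn2* was lower in *Trdn-as* KO, at 384 and 336 against 564 and 536 in *Mettl3* KO (log2 fold change -0.61, SE 0.16, adjusted p = 0.035), with WT between them at 411 and 419. The *Armc2* peak was higher in *Trdn-as* KO (adjusted p = 0.0055), where WT had values like those of *Trdn-as* KO. A peak at chr10:41982566-41983005 was lower, at 10 and 16 against 33 and 45. In CTCF, 2 of 353 members passed (1.24% elsewhere). The *Ccn2* promoter had 103 and 97 in *Trdn-as* KO against 138 and 134 in *Mettl3* KO (adjusted p = 0.03), and WT had 114 and 103. IgG at this peak was 85 in *Trdn-as* KO, 152 in *Mettl3* KO and 89 in WT, and thus differed in the same direction as CTCF. The part of background in this difference was not tested. A weak peak inside *Arhgap18* had 10 and 13 against 5 and 4 (adjusted p = 0.047). These 5 calls fall on 4 peaks, since both *Ccn2* calls are at the same one, and each lay 5 Mb or more from *Trdn-as*. Under both other scalings Pol II gave 5 higher and 2 lower, beside 2.67% and 2.88% of peaks elsewhere. CTCF gave 1 higher and 4 lower under both, beside 1.89% and 1.92% elsewhere. Pol II calls rose in number without *Trdn-as* KO replicate 1 and fell without any other library, in the window as on other autosomes. The median Pol II log2 fold change of the members then ran from -0.28 to -0.08, beside -0.28 to -0.03 on other autosomes. The CTCF calls did not hold with any single library left out.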

How the data were processed

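ChIP-seq libraries of mouse ventricles were analysed for 15 of 18 samples, and the 3 input libraries were not analysed here. According to the methods and the submitters' processing notes, the authors trimmed reads with Trimmomatic 0.39, aligned them to mm39 (GRCm39) with STAR 2.7.11b, removed duplicates with Picard 3.1.1, dropped mitochondrial, ribosomal, spliced and multi-mapping reads, used MACS to call peaks, merged these, counted reads with featureCounts and normalized with DESeq2 1.36.0. The deposited values are scores, namely this normalized signal rounded to whole numbers by the authors. Peaks were annotated by the authors to promoters within 5 kb of a start.

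Differences were tested with limma 3.58.1 (R 4.3.3) on log2(value + 1), since the values are not raw counts. The model covered the 3 genotypes over 6 libraries per target with a trend in the variance. P-values were adjusted by Benjamini-Hochberg over the 52655 Pol II and 60649 CTCF peaks that reached 10 or more in 2 or more libraries. Shares of signal were compared with exact permutation tests. The script was tested on simulated data. Read numbers in Pol II and IgG peaks were estimated from the spacing of the values. Those computed for CTCF libraries were not used, since their spacing is finer than the rounding to whole numbers.

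The window, the gene lists, the markers and the rule for named peaks were chosen with earlier results of these data known. Named were, for each listed gene, the promoter peak with the most signal, further all members called in *Trdn-as* KO against WT (of which there were 0), and the 5 tested members nearest to *Trdn-as* on each side. Members called in the other comparisons, and those with the smallest p, were named after their values were seen. Alternatives were other scalings, filters, pseudocounts, thresholds, a narrower window, fewer libraries, no trend, no X and Y, and a replicate block. Python 3.11.15, pandas 2.3.3, numpy 2.4.6 and matplotlib 3.10.9 were used for the other steps. Promoter sequences came from RefSeq on GRCm38.p6, and no sequence was read at GRCm39 coordinates.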

Additional observations from a re-analysis of the deposited data

How the results depend on the processing

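The counts of peaks in the window with an adjusted p below 0.05 (limma) were recomputed under every alternative. For CTCF in *Trdn-as* KO against WT the count was 0 under each, including each left-out library. Pol II in *Trdn-as* KO against WT had 0 under each except 1 with equal autosomal totals (inside *Armc2*, chr10:41810441-41812936, log2 fold change -0.43, adjusted p = 0.028) and 0 to 8 with single libraries left out. The 8 came without *Trdn-as* KO replicate 1 and included the promoters of *Rps12*, *Sesn1* and *Foxo3*, with log2 fold changes of -0.40, -0.42 and -0.29.

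Shares of peaks called on other autosomes are given in brackets. For Pol II in *Mettl3* KO against WT the 6 became 1 at a threshold of 0.01 (0.361%), 12 at 0.10 (2.55%) and 2 within 5 Mb (1.19%). They became 15 and 14 under the other scalings (4.6% and 4.43%) and 23 with 4 libraries (9.24%). Without the filter or the trend there were 0 (0.00428% and 0%). The number also changed with single libraries left out. For Pol II in *Trdn-as* KO against *Mettl3* KO the 3 became 1 at 0.01, 10 at 0.10, 0 within 5 Mb, 7 and 7 under the scalings, 7 with a pseudocount of 5, 6 with a minimum of 30, 0 without the filter or the trend or with 4 libraries, and 0 to 52 with libraries left out. CTCF in *Mettl3* KO against WT moved from 0 to 3 at 0.10 and to 4 and 3 under the scalings, and had 0 with any library left out. CTCF in *Trdn-as* KO against *Mettl3* KO moved from 2 to 0 at 0.01, 9 at 0.10, 0 within 5 Mb, 5 and 5 under the scalings, 5 with a minimum of 30, 1 with a pseudocount of 5, 1 without X and Y, 0 without the filter or the trend, with 4 libraries or with any library left out. The CTCF share on other autosomes moved too. In *Mettl3* KO against WT it went from 0.181% to 1.53% at 0.10 and to 1.14% and 1.08% under the scalings. In *Trdn-as* KO against *Mettl3* KO it went from 1.24% to 3.22% at 0.10, 1.89% and 1.92% under the scalings and 3.26% with a minimum of 30. The causes were not tested.

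The replicate numbers did not pair the libraries, with correlations of same-numbered deviations of -0.01 to 0.01 except -0.24 between WT and *Trdn-as* KO in CTCF. With the replicate number as a block, Pol II gave 0, 9 and 5 calls and CTCF 0, 0 and 0, in the order *Trdn-as* KO against WT, *Mettl3* KO against WT and *Trdn-as* KO against *Mettl3* KO. A crossed pairing for CTCF in *Trdn-as* KO against WT, added after seeing the data, gave 0 calls.

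The ratio of window shares within 5 Mb was 1.05, 1.14 and 0.920 for Pol II in that order, and 0.984 and 1.02 for CTCF in *Mettl3* KO against WT and *Trdn-as* KO against *Mettl3* KO. With libraries left out the ratio for the whole window ran from 0.992 to 1.02 for CTCF in *Mettl3* KO against WT. Intervals were wider at Pol II peaks with a lower mean value, and the part of depth in this was not tested.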

Other observations

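Among stretches of 5 Mb on the autosomes, the one with the most CTCF calls between *Trdn-as* KO and WT lay on another chromosome than the edit. Stretches of chromosome X were not compared. On chromosome 9 from 35 to 40 Mb, a stretch chosen after its values were seen, 29 of 87 tested CTCF peaks (33.3%) had an adjusted p below 0.05 (limma), all of them higher in *Trdn-as* KO. On chromosome 9 as a whole 69 of 3342 tested peaks passed, 52 of them higher. The window around *Trdn-as* had 0 of 353. Over all autosomes other than chromosome 10, the 297 calls fell to between 0 and 16 when any 1 of the 6 CTCF libraries was left out, so that at most 16 of the 29 could remain. The stretch was chosen from these values and stands as a description.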
